A study of Homo sapiens with 6 samples.

Results

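The genes described here code for 10 contractile and actin-binding proteins, the tropomyosins TPM1 and TPM2, the calponins CNN2 and CNN3, caldesmon (CALD1), the myosin light chain MYL9, the transgelins TAGLN and TAGLN2, and the alpha-actinins ACTN1 and ACTN4. They were taken by gene symbol from a list drawn up with earlier results of these data known, and all 10 were found among the 18678 genes of the deposited table. Their mRNA was sequenced with a stranded kit in Cal27-shGRK2 cells and in Cal27 cells. Cal27 is an established line of human tongue cancer cells of squamous type, and Cal27-shGRK2 is that line with a short hairpin RNA against GRK2, a kinase of activated G protein-coupled receptors. Both were grown in medium with fetal bovine serum and harvested below full confluence. The labels do not say whether Cal27 carried a control vector, or how many hairpins or clones were used. The series asks about the epithelial character of such cancer cells, and its design names the single comparison of Cal27-shGRK2 with Cal27.

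The labels name 3 libraries of each group, but the columns of Cal27-shGRK2 replicates 0 and 1 did not differ in any of the 18678 genes. They were counted as 1 sample, called the doubled library here, so each comparison is of 2 Cal27-shGRK2 libraries with 3 Cal27 libraries. No label ties the libraries to separate cultures. The p-values therefore reflect no more than how far these samples vary, and that variation may be technical. Values are FPKM, fragments scaled to transcript length and to library size, and depth per library is unknown. Summed FPKM lay between 590163 and 615468 in the Cal27-shGRK2 libraries and between 613330 and 644832 in the Cal27 libraries. GRK2 (listed as ADRBK1) had 17.3 and 16.6 FPKM in Cal27-shGRK2, against 55.3, 59.4 and 55.8 FPKM in Cal27, which fits the labels.

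Cells contract and hold their shape through actin filaments that non-muscle myosin slides past each other and that alpha-actinins cross-link into bundles. Tropomyosins lie along the filament and govern which other proteins reach it, while calponins, caldesmon and transgelins bind along its side and restrain or stabilise it. Several of these genes are classical targets of serum response factor (SRF), which binds the CArG box of their promoters with the actin-sensing coactivators MRTFA and MRTFB, and some respond to TEAD factors, whose binding motif contains CATTCC. In stratified epithelium smooth-muscle forms such as TAGLN and MYL9 are usually low.

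In Cal27-shGRK2 cells the tropomyosin gene TPM1 and the calponin gene CNN3 were about equally raised, while MYL9, TAGLN, TAGLN2 and, by less, CNN2 were lower. CALD1, TPM2, ACTN1 and ACTN4 did not pass the test. In limma on log2(FPKM + 1), with Benjamini-Hochberg adjustment over 13377 genes and a threshold of 0.05, 2 of the 10 genes were called higher and 4 lower. Of all genes tested, 15.0% were called higher, 14.6% lower and 29.6% in either direction. A call together with a change of at least 2-fold on that log2 scale was seen in 4 of the 10 genes, and in 2.51% of all genes tested. These shares cannot be read as an enrichment, because the 10 genes were listed with earlier results of these data known. CNN3 lay at the 2-fold cutoff, with a 95% interval of its log2 fold change from 0.87 to 1.14. TAGLN reached the mean of 1 FPKM required for testing only through the Cal27 libraries. The median log2 fold change was -0.05 over the 10 genes and -0.01 over all genes tested. In 6 of the 10 genes no Cal27-shGRK2 library lay within the Cal27 range or the reverse, a share of 60.0% beside 53.3% of all genes tested. The number of all genes called was 3957. It was lower when either Cal27-shGRK2 library was left out, and each such fit had a lone library in that group. It was also lower without Cal27 replicate 0 (3574) or replicate 2 (3384), and was 4019 without Cal27 replicate 1. After rescaling of every library to 1 common total (TPM), the split over all genes moved to 2850 higher and 1512 lower, against 2008 higher and 1949 lower as deposited, and that over the 10 genes to 3 higher and 4 lower.

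**Figure D1:**
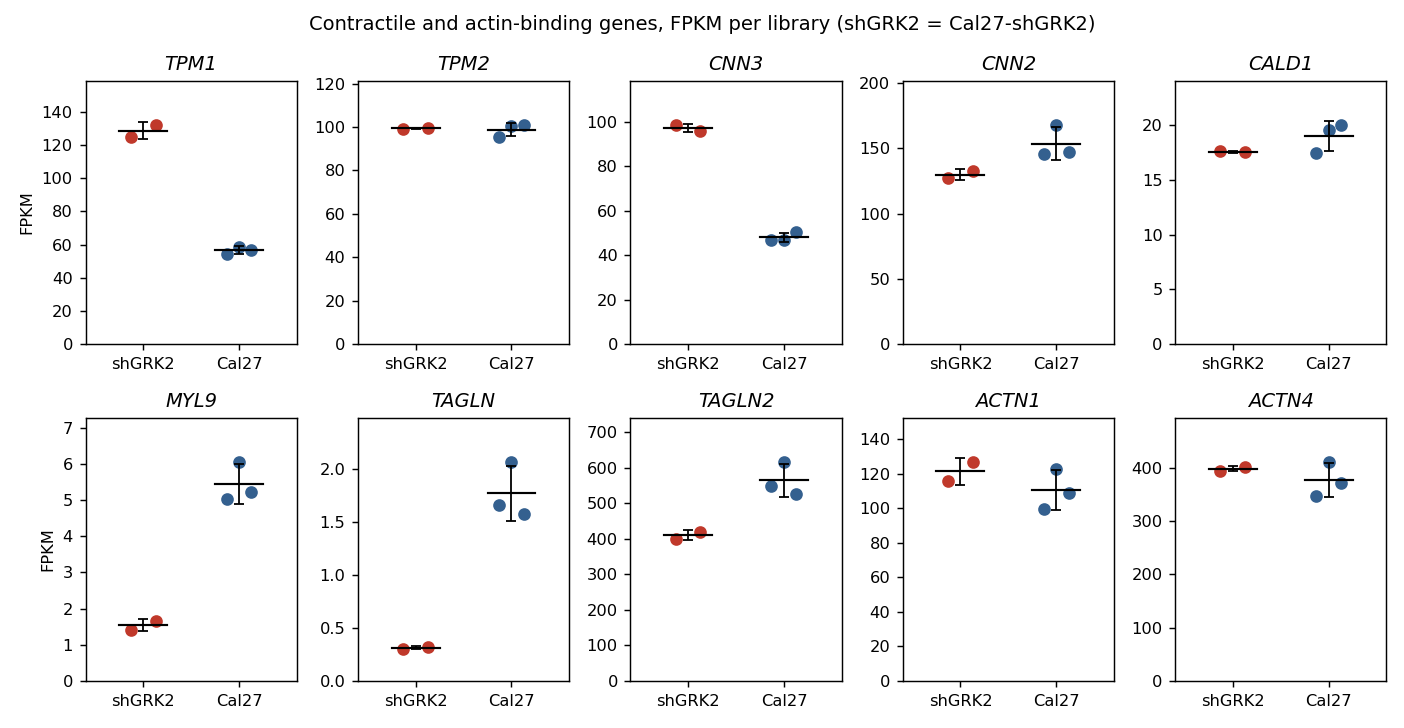
FPKM of the 10 genes in each library, with 2 distinct Cal27-shGRK2 libraries (red) left of 3 Cal27 libraries (blue). Each panel has its own vertical axis from 0, points are libraries, and the black lines give the mean and SD. TPM1 and CNN3 stand above Cal27 in both Cal27-shGRK2 libraries, and MYL9, TAGLN, TAGLN2 and CNN2 below it.

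The table gives no value per transcript start, so the 250 bases before annotated starts are shown only for the pair that rose together and for CNN2, a calponin that was lower and has a CArG box in its window. Of the 10 genes, 8 had entries in the RefSeq promoter table (GRCh38.p14), with 19 starts in all, and TAGLN and MYL9 had none. Motifs were searched on both strands, and capitals mark a match to the CArG box or to CATTCC. All sequences read 5′ to 3′ in the direction of the gene.
TPM1, chr15:63048239-63048488, plus strand: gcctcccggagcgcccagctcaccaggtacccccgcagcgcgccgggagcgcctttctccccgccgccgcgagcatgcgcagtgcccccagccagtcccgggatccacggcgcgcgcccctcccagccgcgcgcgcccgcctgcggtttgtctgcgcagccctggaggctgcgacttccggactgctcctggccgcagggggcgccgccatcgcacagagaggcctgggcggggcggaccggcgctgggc
CNN3, chr1:94927111-94927360, minus strand: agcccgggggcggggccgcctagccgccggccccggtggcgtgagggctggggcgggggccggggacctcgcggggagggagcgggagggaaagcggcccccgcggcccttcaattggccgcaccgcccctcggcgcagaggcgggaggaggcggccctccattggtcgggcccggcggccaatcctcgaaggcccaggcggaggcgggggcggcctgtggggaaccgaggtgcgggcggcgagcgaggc
CNN3, a second start, chr1:94925770-94926019, minus strand: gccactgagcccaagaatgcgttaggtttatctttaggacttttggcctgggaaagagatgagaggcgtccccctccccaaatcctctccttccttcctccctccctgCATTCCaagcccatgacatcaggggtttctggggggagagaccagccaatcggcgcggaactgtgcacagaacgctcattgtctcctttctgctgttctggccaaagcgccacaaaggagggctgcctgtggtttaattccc
CNN2, chr19:1026358-1026607, plus strand: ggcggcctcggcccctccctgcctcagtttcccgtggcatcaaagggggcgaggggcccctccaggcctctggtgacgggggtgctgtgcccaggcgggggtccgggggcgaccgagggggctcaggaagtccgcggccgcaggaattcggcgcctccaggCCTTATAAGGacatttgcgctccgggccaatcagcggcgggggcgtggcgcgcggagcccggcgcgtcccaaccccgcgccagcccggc

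The only TPM1 window lay inside the gene, ahead of an inner start, and held neither motif. The gene itself begins at 63042632, and the bases before that position were not searched. The first CNN3 window held neither motif. CATTCC began 142 bases before the second CNN3 start, and the CArG box 89 bases before the CNN2 start. CNN2 was picked for that box, and the windows of TAGLN2, which was also lower, held neither motif. Of the 19 starts, 2 held a CArG box, at CNN2 and at a start of ACTN1, and 4 held CATTCC, at ACTN1, CNN3 and CALD1. Among 35114 promoter windows of the same length, 1.16% held the CArG box and 11.9% CATTCC. These are matches of letters, and binding was not measured.

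TPM1 (ENSG00000140416.19; chromosome 15 from 63042632 to 63071915, plus strand, GENCODE version 29 on hg38, as for the positions of the other genes) codes for a coiled-coil tropomyosin of the kind that stabilises stress fibres. It had 125 and 132 FPKM in the Cal27-shGRK2 libraries, against 54.4, 58.8 and 56.9 FPKM in the Cal27 libraries. The groups did not overlap, and the lowest Cal27-shGRK2 library was far above the highest Cal27 library. The mean was 129 ± 4.87 FPKM in Cal27-shGRK2 (SD, n = 2) and 56.7 ± 2.22 FPKM in Cal27 (SD, n = 3), a 2.27-fold higher mean. The log2 fold change was 1.17 ± 0.06 (SE, limma adjusted p = 1.7e-09), which ranked 143rd from the top among the 13377 genes. The authors' deposited table gives TPM1 a log2 fold change of 1.194 and q = 0.00061.

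A short feature on the opposite strand within TPM1, RP11-244F12.2 (named AC079328.2 in GENCODE version 29), moved with it. All 691 of its exon bases lie within exons of TPM1. It had 25.6 and 27.6 FPKM in Cal27-shGRK2, against 12.2, 12.0 and 10.6 FPKM in Cal27, a 2.29-fold higher mean (log2 fold change 1.13, limma adjusted p = 2.8e-08). The kit marks strand, but the sources used here do not give whether strand was used in counting. Reads of TPM1 and of this feature therefore cannot be told apart.

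TPM2 (ENSG00000198467.13; chromosome 9 from 35681992 to 35690121, minus strand) codes for the other tropomyosin of the 10. Its level was 99.3 and 99.5 FPKM in Cal27-shGRK2, against 95.2, 100.4 and 101 FPKM in Cal27. The 2 groups overlapped, and the log2 fold change was 0.01 ± 0.06, with a 95% interval from -0.12 to 0.14 (limma adjusted p = 0.93). The log2 ratio of TPM1 to TPM2 within a library was 0.33 and 0.41 in Cal27-shGRK2, against -0.81, -0.77 and -0.82 in Cal27. TPM2 was thus the more abundant of the pair per length in every Cal27 library and TPM1 in both Cal27-shGRK2 libraries. The difference in log2 ratio was 1.17, with p = 0.1 in a two-sided exact permutation test, which with 2 and 3 libraries cannot go lower (0.133 adjusted over the 4 paralog pairs tested).

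Over all 4 tropomyosin genes, TPM1 made up 15.6% and 15.2% of the summed FPKM in Cal27-shGRK2, against 7.31%, 7.63% and 7.64% in Cal27. TPM3, the most abundant, had 41.6% and 43.1% in Cal27-shGRK2, against 42.3%, 43.0% and 42.0% in Cal27. TPM4 had 30.5% and 30.2% in Cal27-shGRK2, against 37.6%, 36.4% and 36.8% in Cal27. The larger TPM1 share thus stood beside a smaller TPM4 share, while that of TPM3 was about level. Tested singly, TPM4 did not pass (limma adjusted p = 0.1), and neither did TPM3 (limma adjusted p = 0.11).

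**Figure D2:**
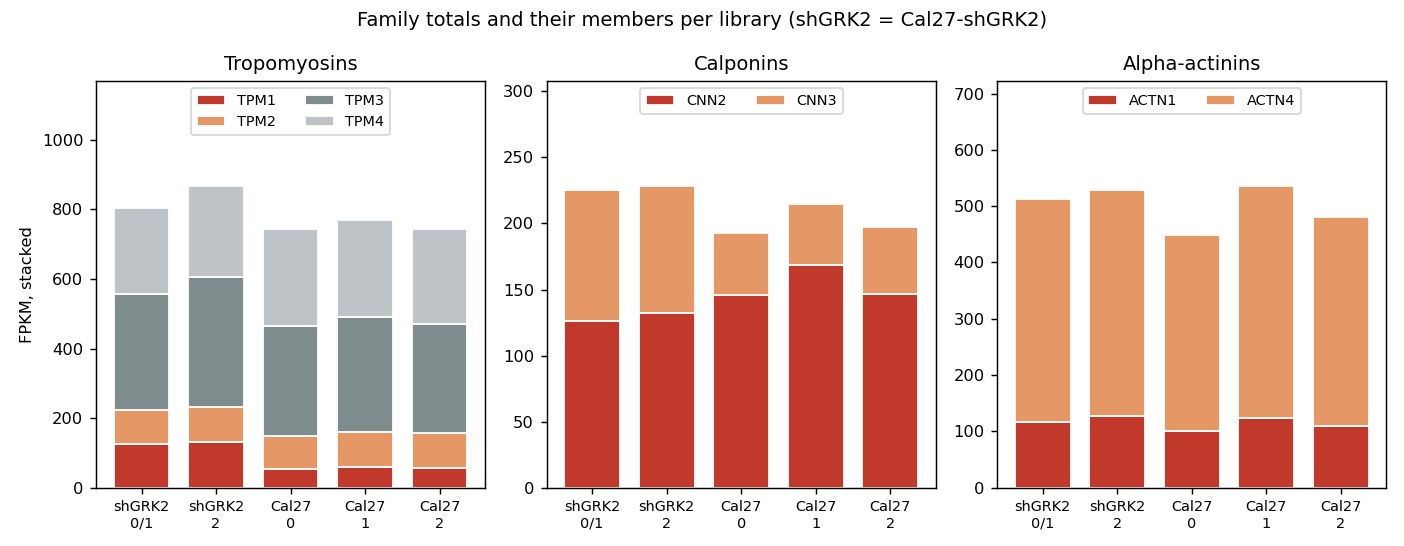
Stacked FPKM of the tropomyosin, calponin and alpha-actinin genes in each library, with the 2 Cal27-shGRK2 libraries left of the 3 Cal27 libraries. The TPM1 and CNN3 segments are larger in both Cal27-shGRK2 libraries, and the split between ACTN1 and ACTN4 is nearly the same in all 5.

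CNN3 (ENSG00000117519.15; chromosome 1 from 94896949 to 94927278, minus strand) codes for the acidic calponin, an actin-binding protein of non-muscle cells. It had 98.6 and 95.8 FPKM in Cal27-shGRK2, against 46.9, 46.7 and 50.4 FPKM in Cal27. Both Cal27-shGRK2 libraries lay well above every Cal27 library, with a 2.03-fold higher mean. The 95% interval of the log2 fold change ran from 0.87 to 1.14 (limma adjusted p = 9.3e-09), and the authors' deposited table gives q = 0.00061.

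CNN2 (ENSG00000064666.14; chromosome 19 from 1026581 to 1039068, plus strand) codes for calponin 2, a form found in many cell types. Its level was 127 and 133 FPKM in Cal27-shGRK2, against 146, 168 and 147 FPKM in Cal27. The groups did not overlap, but the gap between them was smaller than the range of the Cal27 libraries. The log2 fold change was -0.24 ± 0.07 (SE, limma adjusted p = 0.016). The call was lost with limma run with neither the trend nor the robust setting (limma adjusted p = 0.072). It was also lost when either Cal27-shGRK2 library was left out, which leaves a lone library in that group. Over all settings the log2 fold change ran from -0.28 to -0.18. CNN2 is not marked as significant in the authors' deposited table (q = 0.099).

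CNN2 also holds a short opposite-strand feature, AC011558.5 (AC011558.1 in GENCODE version 29), with all 338 of its exon bases in exons of CNN2. It had 172 and 176 FPKM in Cal27-shGRK2, against 208, 237 and 198 FPKM in Cal27, values above those of CNN2 in each library. Its log2 fold change was -0.29 (limma adjusted p = 0.0063), a call lost without the doubled Cal27-shGRK2 library (adjusted p = 0.068). Reads of the pair cannot be told apart either, so the level of CNN2 is uncertain.

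The calponins together had 225 and 228 FPKM in Cal27-shGRK2, against 193, 215 and 197 FPKM in Cal27. CNN3 made up 43.8% and 42.0% of this in Cal27-shGRK2, against 24.3%, 21.7% and 25.6% in Cal27. The log2 ratio of CNN2 to CNN3 averaged 0.41 ± 0.08 in Cal27-shGRK2 (SD, n = 2) and 1.68 ± 0.16 in Cal27 (SD, n = 3). The difference was -1.26, with the groups apart and an exact permutation p = 0.1 (0.133 adjusted over the 4 pairs). CNN2 remained the more abundant calponin in all 5 libraries.

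CALD1 (ENSG00000122786.19; chromosome 7 from 134744252 to 134970728, plus strand) codes for caldesmon, which binds actin, tropomyosin and calmodulin and inhibits the actomyosin ATPase. It had 17.6 and 17.5 FPKM in Cal27-shGRK2, against 17.4, 19.5 and 20.0 FPKM in Cal27. The groups overlapped at Cal27 replicate 0, and the log2 fold change was -0.10 ± 0.07, with a 95% interval from -0.26 to 0.05 (limma adjusted p = 0.32).

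MYL9 (ENSG00000101335.9; chromosome 20 from 36541484 to 36551447, plus strand) codes for a regulatory light chain of smooth-muscle and non-muscle myosin, whose phosphorylation switches the motor on. It had 1.42 and 1.66 FPKM in Cal27-shGRK2, against 5.04, 6.06 and 5.21 FPKM in Cal27. Every Cal27 library was above both Cal27-shGRK2 libraries, with a 3.54-fold lower mean in Cal27-shGRK2. The log2 fold change was -1.34 ± 0.10 (SE, limma adjusted p = 7.4e-08), the 118th from the bottom among the genes tested, and -1.76 at a pseudocount of 0.1. The authors' deposited table gives -1.949 and q = 0.00061.

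MYL9 was a minor light chain in these cells. It was 0.173% and 0.185% of the summed FPKM of the regulatory light chain genes MYL9, MYL12A and MYL12B in Cal27-shGRK2, against 0.585%, 0.661% and 0.559% in Cal27. That sum was 819 and 893 FPKM in Cal27-shGRK2, against 862, 918 and 932 FPKM in Cal27, and neither MYL12A nor MYL12B passed the test (limma adjusted p = 0.67 and 0.29). MYL12A and MYL12B are near-identical neighbours, so their split is uncertain.

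TAGLN (ENSG00000149591.16; chromosome 11 from 117199321 to 117204782, plus strand) codes for transgelin, or SM22-alpha, an early smooth-muscle marker that binds actin. Its level was 0.301 and 0.322 FPKM in Cal27-shGRK2, against 1.66, 2.07 and 1.58 FPKM in Cal27. The groups were far apart, with a 5.67-fold lower mean in Cal27-shGRK2, but only 3.08% of the genes tested had a lower mean level. The opposite-strand gene PCSK7 shares 446 of the 3917 exon bases of TAGLN. PCSK7 had 8.62 and 10.2 FPKM in Cal27-shGRK2, against 7.82, 9.29 and 9.32 FPKM in Cal27. Without strand in counting, reads of the shared bases cannot be told apart. The low level of TAGLN and its ratio to TAGLN2 are therefore uncertain. The log2 fold change was -1.07 ± 0.11 (SE, limma adjusted p = 3.6e-06) and -2.17 at a pseudocount of 0.1, since adding 1 FPKM shrinks the change of so low a gene. TAGLN reached the filter of a mean of 1 FPKM only through the Cal27 libraries. With no filter the counts over the 10 genes were also 2 higher and 4 lower. The authors' deposited table gives TAGLN a log2 fold change of -2.482 and q = 0.065, not marked as significant.

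TAGLN2 (ENSG00000158710.14; chromosome 1 from 159918107 to 159925732, minus strand) codes for the broadly expressed transgelin, and 98.7% of the genes tested had a lower mean level. It had 400.4 and 421 FPKM in Cal27-shGRK2, against 549, 618 and 528 FPKM in Cal27. The groups did not overlap, with a 1.38-fold lower mean in Cal27-shGRK2 and a log2 fold change of -0.46 ± 0.07 (SE, limma adjusted p = 1.4e-04). The authors' deposited table marks it as significant (q = 0.0022). TAGLN2 was 1328 and 1307 times as abundant as TAGLN per length in Cal27-shGRK2, against 332, 299 and 333 times in Cal27. The difference in the log2 ratio of TAGLN to TAGLN2 was -2.04 (exact permutation p = 0.1, 0.133 adjusted over the 4 pairs), or -0.62 when 1 FPKM was added to both genes.

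The third transgelin, TAGLN3, known mainly from neurons, lay under the filter and was not tested here. It had 0.244 and 0.277 FPKM in Cal27-shGRK2, against 0.0895, 0.106 and 0.0913 FPKM in Cal27, opposite in direction to TAGLN and TAGLN2. It was singled out after its values were seen, and the authors' deposited table marks it as significant (log2 fold change 1.521, q = 0.016).

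ACTN1 (ENSG00000072110.13; chromosome 14 from 68874143 to 68979440, minus strand) and ACTN4 (ENSG00000130402.11; chromosome 19 from 38647649 to 38731583, plus strand) code for the non-muscle alpha-actinins, which tie actin filaments into bundles and link them to adhesions. ACTN1 had 116 and 127 FPKM in Cal27-shGRK2, against 99.8, 123 and 109 FPKM in Cal27. ACTN4 had 395 and 402 FPKM in Cal27-shGRK2, against 348, 412 and 372 FPKM in Cal27. The groups overlapped for both genes, with Cal27 replicate 1 the highest Cal27 library for each.

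Neither alpha-actinin passed. The log2 fold change of ACTN1 was 0.14 ± 0.08, with a 95% interval from -0.04 to 0.32 (limma adjusted p = 0.23), and that of ACTN4 was 0.08 ± 0.07, with an interval from -0.07 to 0.23 (limma adjusted p = 0.42). ACTN1 was called higher when Cal27 replicate 1 was left out (log2 fold change 0.22, limma adjusted p = 0.027) and when libraries were rescaled to a common total (0.20, limma adjusted p = 0.046). ACTN1 made up 22.7% and 24.0% of the summed FPKM of the pair in Cal27-shGRK2, against 22.3%, 23.0% and 22.7% in Cal27. The log2 ratio of ACTN1 to ACTN4 differed by 0.06, with overlapping groups (exact permutation p = 0.5, and 0.5 adjusted over the 4 pairs).

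**Figure D3:**
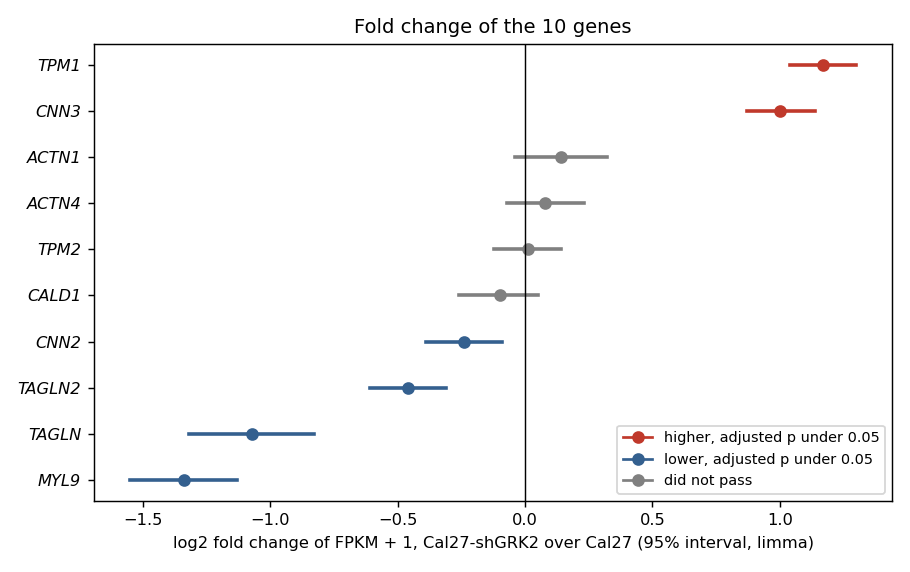
Log2 fold change of FPKM + 1 for the 10 genes, Cal27-shGRK2 over Cal27, with limma's 95% interval as a bar. TPM1 (1.17) and CNN3 (interval from 0.87 to 1.14) lie to the right, MYL9 (-1.34), TAGLN (-1.07), TAGLN2 (-0.46) and CNN2 (-0.24) to the left, and the intervals of the other 4 genes include 0.

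By level per length, TAGLN2 and ACTN4 were the most abundant in both groups, and CALD1, MYL9 and TAGLN the 3 least abundant in that order. In Cal27-shGRK2, TAGLN2 (411 ± 14.5 FPKM) and ACTN4 (399 ± 4.28 FPKM) had overlapping ranges across libraries, and in Cal27 the ranges of TAGLN2 (565 ± 47.2 FPKM) and ACTN4 (377 ± 32.2 FPKM) did not overlap. Within each of the 5 libraries TAGLN2 was the higher of the pair. In Cal27-shGRK2, CNN2 overlapped with TPM1 and TPM1 with ACTN1, followed by TPM2 and CNN3. In Cal27 the order was CNN2, ACTN1, TPM2, TPM1 and CNN3, where ACTN1 and TPM2 overlapped. TPM1 thus stood 4th of 10 in Cal27-shGRK2 and 6th in Cal27.

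The wider actin machinery moved in both directions. Of 107 other genes in 9 lists of actin and contractile proteins, 93 were tested, of which 29 (31.2%) rose, 15 (16.1%) fell and 49 did not pass. The shares over all genes tested were 15.0% and 14.6%, and the median log2 fold change of the 93 genes was 0.05. These shares cannot be read as an enrichment either, because the lists too were chosen with earlier results of these data known. The counts of each list below stand beside the same shares over all genes tested. With few genes each, they are not read as results about a list. Without Cal27-shGRK2 replicate 2 the number that rose was 19, and rescaling to a common total gave 36 higher and 14 lower.

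Of the 2 listed actin genes with values, cytoplasmic gamma-actin ACTG1 was the more abundant. It had 1639.9 and 1777 FPKM in Cal27-shGRK2, against 1940.0, 2458 and 2063 FPKM in Cal27. The groups did not overlap (log2 fold change -0.33, limma adjusted p = 0.026), but the call was lost without Cal27-shGRK2 replicate 2 (adjusted p = 0.08) or the doubled library (0.2). ACTB, the near-identical beta-actin gene, is missing from the deposited table, so ACTG1 could not be compared with it. The smooth-muscle actin ACTA2 had 1.34 and 1.16 FPKM in Cal27-shGRK2, against 1.58, 1.69 and 1.48 FPKM in Cal27, and did not pass (limma adjusted p = 0.17).

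Of 8 tested myosin chains, 2 rose and 0 fell. The heavy chain MYH10, of non-muscle myosin IIB, had 9.07 and 8.94 FPKM in Cal27-shGRK2, against 5.74, 5.61 and 5.41 FPKM in Cal27 (log2 fold change 0.60, limma adjusted p = 2.6e-05). MYH9, the heavy chain of myosin IIA, had a log2 fold change of 0.20 (limma adjusted p = 0.041), a call lost without any 1 library other than Cal27 replicate 1 (adjusted p from 0.12 to 0.18). The most abundant chain, the essential light chain MYL6, had 739 and 708 FPKM in Cal27-shGRK2, against 727, 725 and 759 FPKM in Cal27, and did not pass (limma adjusted p = 0.77).

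Among regulators of the light chain, MYLK, the kinase that phosphorylates MYL9 and its relatives, had 22.1 and 23.5 FPKM in Cal27-shGRK2, against 10.6, 11.9 and 10.3 FPKM in Cal27 (a 2.09-fold higher mean, limma adjusted p = 1.0e-07). PPP1CB, the catalytic subunit of myosin phosphatase, had 72.5 and 79.6 FPKM in Cal27-shGRK2, against 101, 93.7 and 102 FPKM in Cal27 (log2 fold change -0.38, limma adjusted p = 4.5e-04). The kinase genes ROCK1 (log2 fold change 0.10, limma adjusted p = 0.41) and ROCK2 (0.12, limma adjusted p = 0.26) did not pass. MYLK was thus higher and PPP1CB lower, with no overlap of the groups in either, and no count over the list of these regulators is given here.

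Of 10 tested crosslinkers and bundlers, 4 rose and 2 fell, with anillin, ANLN, higher by 0.32 on the log2 scale. Fascin, FSCN1, which bundles filopodial actin, had 198 and 213 FPKM in Cal27-shGRK2, against 313, 349 and 295 FPKM in Cal27 (log2 fold change -0.63, limma adjusted p = 1.0e-05). The plastin PLS3 had -0.21 (limma adjusted p = 0.021), a call lost without Cal27 replicate 0 (adjusted p = 0.051) or 2 (0.082) or without the doubled Cal27-shGRK2 library (0.22), and under rescaling to a common total (0.062). Filamin C, FLNC, lay under the filter and is given as chosen after its values were seen, at 0.885 and 0.897 FPKM in Cal27-shGRK2, against 0.0784, 0.104 and 0.0931 FPKM in Cal27. The authors' deposited table marks FLNC as significant (log2 fold change 3.263, q = 0.0062).

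Stress fibre and focal adhesion proteins formed the largest list, with 9 of 24 tested genes higher and 6 lower. The LIM-domain adaptors of alpha-actinin split, with PDLIM4 (0.83) and PDLIM2 (0.60) higher and PDLIM1 (-0.77) lower. PDLIM1 had 97.7 and 104 FPKM in Cal27-shGRK2, against 173, 182 and 165 FPKM in Cal27. Synaptopodin, SYNPO, an alpha-actinin partner, fell by 0.91 on the log2 scale.

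Of 21 tested genes of filament turnover, 5 rose and 2 fell. Cofilin 2, CFL2 (0.65), and the cofilin kinase LIMK1 (0.51) rose, while the related kinase LIMK2 (-0.68) and destrin, DSTN (-0.27), fell. LIMK1 had 52.8 and 52.7 FPKM in Cal27-shGRK2, against 35.9, 38.8 and 35.2 FPKM in Cal27. LIMK2 had 17.5 and 18.0 FPKM in Cal27-shGRK2, against 26.7, 32.5 and 28.2 FPKM in Cal27, so the related kinases were changed in opposite directions with no overlap of groups.

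Of 5 tested membrane linkers, 2 rose and 1 fell, the scaffold NHERF1 (listed as SLC9A3R1, -0.92), while NF2 had 0.34. Moesin, MSN, had 0.24 (limma adjusted p = 0.017), a call lost without either Cal27-shGRK2 library (adjusted p = 0.17 without replicate 2 and 0.051 without the doubled library) and without Cal27 replicate 0 or 2 (0.055 for each). Of the other tropomyosins, calponins, transgelins and tropomodulins 3 were tested, and TMOD3, which caps filament ends, had 0.31 (limma adjusted p = 0.0029), lost without Cal27-shGRK2 replicate 2 (adjusted p = 0.078).

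Among transcription factors of this gene set, SRF had 12.8 and 13.4 FPKM in Cal27-shGRK2, against 17.5, 19.1 and 17.5 FPKM in Cal27. It fell without overlap of the groups (log2 fold change -0.43, limma adjusted p = 2.8e-04). Its coactivator gene MRTFA (listed as MKL1) did not pass (limma adjusted p = 0.2), and MRTFB (listed as MKL2) had 0.27 (limma adjusted p = 0.041), a call lost without Cal27 replicate 0 (adjusted p = 0.15) or either Cal27-shGRK2 library (0.16 without replicate 2 and 0.19 without the doubled library). FHL1, a LIM-only protein of muscle, had 5.36 and 5.53 FPKM in Cal27-shGRK2, against 1.22, 1.07 and 1.27 FPKM in Cal27 (log2 fold change 1.56, limma adjusted p = 9.9e-09).

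**Figure D4:**
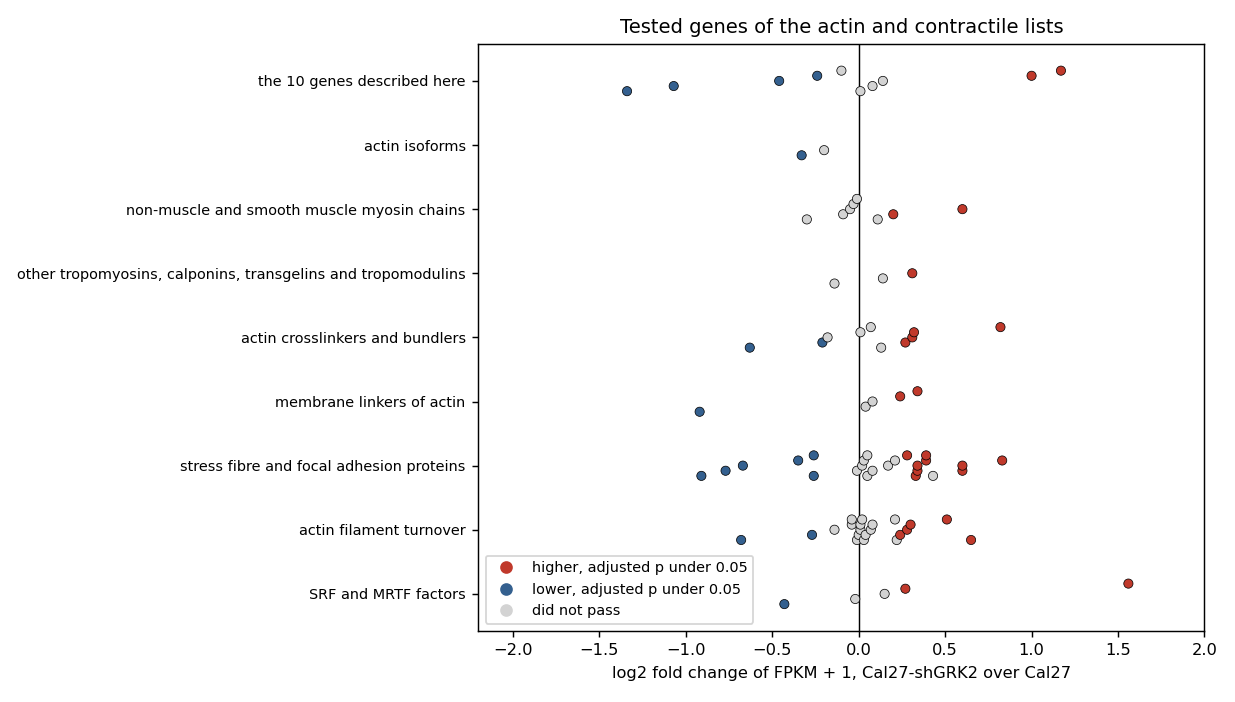
Log2 fold change of FPKM + 1, Cal27-shGRK2 over Cal27, of every tested gene in 8 of the 9 actin and contractile lists, drawn below the 10 genes described here. Each point is a gene, red where higher and blue where lower at an adjusted p under 0.05 in limma, and red and blue points occur together in 5 of the 8 lists.

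Most listed markers of other contractile cells and of fibroblasts were missing from the table, as ACTB was, so their level is unknown. Those present had low summed levels beside the epithelial markers below. Of 10 smooth-muscle and myofibroblast markers 3 were in the table, with a summed level of 13.5 to 14.7 FPKM in Cal27-shGRK2, against 8.87 to 11.0 FPKM in Cal27. Most of this was smoothelin, SMTN, at 13.1 and 12.1 FPKM in Cal27-shGRK2, against 6.99, 9.09 and 7.33 FPKM in Cal27 (limma adjusted p = 1.9e-04). The summed fibroblast markers were at 4.38 to 4.46 FPKM in Cal27-shGRK2, against 4.35 to 4.71 FPKM in Cal27, from 4 of 10 genes. The striated-muscle markers summed to 7.48 to 8.10 FPKM in Cal27-shGRK2, against 7.44 to 8.27 FPKM in Cal27, from 3 of 10 genes. No marker of these lists in the table was at 0 in any library. All 10 listed epithelial markers, 8 of squamous cells and the more general CDH1 and EPCAM, were in the table. The 8 were lower, and CDH1 and EPCAM were higher. All 10 together summed to 1468 to 1499.8 FPKM in Cal27-shGRK2, against 3339 to 3727 FPKM in Cal27, with KRT5 the largest part. The fall differed much between markers. KRT14 had 0.235 and 0.160 FPKM in Cal27-shGRK2, against 19.3, 20.9 and 16.5 FPKM in Cal27. KRT13 had 0.223 and 0.110 FPKM in Cal27-shGRK2, against 27.2, 27.0 and 22.7 FPKM in Cal27. DSG3 was also under 1 FPKM in Cal27-shGRK2. The part of these markers in the changes above was not tested. In bulk samples fewer cells of a type and less RNA per cell cannot be told apart.

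The genes most like TPM1 across the 5 libraries, by distance of the centred log2(FPKM + 1) values among 8636 genes, were NT5E (distance 0.04), HBEGF (0.05) and OXTR (0.06). Those 8636 are what was left of 9381 genes with a mean of 5 FPKM or more. The 10 genes themselves were left out, as were symbols spelled like placeholder, antisense or noncoding names, a filter that also takes some protein-coding genes. NT5E, an ectonucleotidase, had 90.4 and 94.8 FPKM in Cal27-shGRK2, against 39.8, 41.5 and 40.4 FPKM in Cal27. Those most like MYL9 were PKP1 (0.08), JAG1 (0.10) and ST6GALNAC4 (0.17). MYL9 itself had a mean under 5 FPKM, so genes at its own level were not among those compared. PKP1, a desmosomal plakophilin, had 2.72 and 2.88 FPKM in Cal27-shGRK2, against 8.25, 9.46 and 8.63 FPKM in Cal27.

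The authors' own value per condition adds a view of the missing Cal27-shGRK2 library. In Cal27 that value equalled the mean of the 3 columns within a relative tolerance of 1e-04 in all 13339 genes with a value of at least 1 FPKM. In Cal27-shGRK2 the same held in 48 of 13307 genes for the 2 distinct libraries. If the value is the mean of 3 libraries there too, the third would have held 132 FPKM of TPM1, 95.5 of CNN3, 1.15 of MYL9, 0.327 of TAGLN, 436 of TAGLN2 and 129 of CNN2. These computed values were on the same side of the Cal27 libraries as the other 2 in all 6 called genes, and with them the counts were again 2 higher and 4 lower. Over the whole table, 74 computed values came out below 0, which no library can hold, and were set to 0.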

How the data were processed

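Cal27-shGRK2 and Cal27 cells were profiled by stranded mRNA sequencing. The submitters' processing notes name the build hg38 and the tools Cuffdiff 2.2.1, TopHat2 2.1.0 and Bowtie2 2.2.6, without roles, annotation or strand setting. The deposited table, per the file headers, holds FPKM per library, the authors' FPKM per condition, their p-values and q-values, log2 fold change, and a score from their test that was not used. Deposited FPKM entries of 0.0001 stand for 0 and were set to it. No counts are given, so depth is unknown and no counting interval can be had.

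The identical columns of Cal27-shGRK2 replicates 0 and 1 were counted once. Genes whose mean reached 1 FPKM were tested with limma 3.58.1 in R 4.3.3 (trend, robust, 3 residual degrees of freedom) on log2(FPKM + 1), two-sided, with adjustment over all 13377 genes; this scale understates changes of low genes. The script was tested on simulated data. Log2 ratios of paralogs were compared by exact permutation (SciPy 1.17.1). Positions come from GENCODE version 29, matched by gene identifier for 18503 of 18678 genes.

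The 10 genes and the lists were chosen with earlier results of these data known. Named by rule were all 10 genes, GRK2, up to 2 called genes per direction of each list, the most abundant actin and myosin chain, and the 3 nearest patterns to the gene of the 10 with the largest rise and the one with the largest fall; family relatives, opposite-strand features and markers were named outside it. Alternatives were another pseudocount, filters, scalings, limma with neither the trend nor the robust setting, and a replicate block. Others left out each library, or added a further Cal27-shGRK2 library computed from the authors' value. Some genes and 1 list that the rule names are not reported here.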

Additional observations from a re-analysis of the deposited data

How the results depend on the processing

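Of 47 genes followed through the alternatives, 41 passed the test, and 33 of these passed under every alternative that tested them, among them TPM1, CNN3, MYL9, TAGLN, TAGLN2 and MYLK. The 8 that lost the call in at least 1 alternative are CNN2, ACTG1, MYH9, PLS3, MSN, MKL2, TMOD3 and AC011558.5. The number of the 10 genes called lower was 2 with a mean of at least 5 FPKM, which leaves MYL9 and TAGLN untested. Adding 1 FPKM to both genes moved the difference in the log2 ratio of TAGLN to TAGLN2 to -0.62. TPM2, which did not pass, had a log2 fold change of -0.02 with the replicate block under number 1 and of -0.02 (without Cal27 replicate 0) to 0.02 when each library was left out. MYL6, which did not pass, had 0.03 under rescaling to a common total, 0.00 with the further library computed from the authors' value, and -0.06 to 0.00 when each library was left out. Leaving out each library gave 2600 to 4019 genes called, 2 to 3 of the 10 genes higher and 3 to 4 lower, 19 to 35 list genes higher and 10 to 15 lower, and a GRK2 log2 fold change of -1.71 to -1.66. The differences in log2 ratio were -2.07 to -1.99 for TAGLN to TAGLN2, 0.00 to 0.11 for ACTN1 to ACTN4, 1.14 to 1.21 for TPM1 to TPM2 and -1.33 to -1.18 for CNN2 to CNN3. A lone Cal27-shGRK2 library was assumed to vary like the Cal27 libraries.

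The replicate numbers were not shown to pair the samples: deviations from the group means correlated at 0.080 for number 0 and 0.017 for number 2, with genes as points. With the doubled library taken as number 0, the block gave 3960 genes called and 3 of the 10 higher, ACTN1 being added (log2 fold change 0.22, limma adjusted p = 0.018). Taken as number 1, it gave 3481 genes, 2 of the 10 higher and 4 lower. With 5 libraries and unknown depth, changes well under those of CNN2 may not be detectable.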
